A study of Oryza sativa with 4 samples.

Results

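The genes described here were grouped under jasmonate synthesis and perception: AOS (LOC4334233), OPR1, OPR4, COI2 and BHLH148. The part that these genes play in rice spikelets was not tested. They were chosen by name, with or without the prefix Os, after earlier results had shown that each differed between OsCPK21-RNAi and ZH11 spikelets at stage 12 or stage 9, so their ratios between genotypes are a description and support nothing further. The names fit 7 loci of the gene table, of which 6 were read by the array, with 1 probe set each, out of 17905 genes measured. The name OPR4 stands for both LOC4340486 (OsOPR4) and LOC4340484 (OsOPR6), called OPR4 and OPR6 here. The name OPR1 stands for LOC4340490, which has a probe set, and for its neighbour LOC112936094, for which no probe set was annotated, so the OPR1 signal could hold RNA of both loci.

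Gene expression was measured in whole spikelets on the Affymetrix Rice Genome Array, with 1 array for each of 4 groups. The groups were OsCPK21-RNAi at anther stage 12, ZH11 at stage 12, OsCPK21-RNAi at stage 9 and ZH11 at stage 9. ZH11 is a japonica cultivar and the genetic background of all 4 samples, and the RNAi plants carry an RNA interference construct against OsCPK21, a calcium-dependent protein kinase. All plants were grown untreated in a field. The labels name 3 RNAi lines, and neither the construct's promoter nor any pooling of the lines is given in the sources used here. A group of 1 array has no replicate spread, so no standard deviation or test could be given, and how precise a value is depends on that small number of arrays.

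Groups follow the titles, which on all 4 samples contradict the genotype characteristic. Every ratio between genotypes would change sign if the characteristic were the correct label. OsCPK21 itself had a signal of 17.6 in RNAi and 2719 in ZH11 spikelets at stage 12, and of 206 in RNAi and 1940 in ZH11 spikelets at stage 9, so it was low in both arrays titled RNAi. All 5 floral organ identity markers and all 5 measured markers of green tissue were above the floor (a signal of 71.1) on each array. A whole spikelet holds lemma, palea and floral organs besides the anthers, and in such a mixture fewer cells of a type and less RNA per cell cannot be told apart. Signals are linear and have no unit. Signals under this floor were raised to it before a ratio was taken. "Higher" and "lower" are used of a gene whose signals differed by 2-fold or more with the brighter of the pair over that floor, and a ratio with the dimmer array at or under it is a bound.

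Jasmonate is a plant hormone made from fatty acids of the plastid. Lipoxygenases oxidise the fatty acid, allene oxide synthase (AOS) and allene oxide cyclase (AOC) turn it into oxophytodienoic acid, and an oxophytodienoate reductase (OPR) and rounds of beta-oxidation complete jasmonic acid. JAR1 joins the acid to isoleucine, and the conjugate brings COI receptors, which are F-box proteins, together with JAZ repressors, whose breakdown frees bHLH transcription factors that the JAZ proteins had held. Rice plants use jasmonate in the response to wounding, in the opening of the spikelet and in the release of pollen.

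Of the 6 genes, 4 were higher in RNAi than in ZH11 spikelets at stage 9: BHLH148 by at least 54.2-fold, OPR4 by 8.86-fold, OPR1 by 7.25-fold and AOS by 2.90-fold. COI2 was within 2-fold there, and OPR6 was below the floor in both genotypes. At stage 12, BHLH148 was 2.35-fold higher, COI2 was 2.17-fold lower, and AOS, OPR1 and OPR4 were within 2-fold. OPR6, under the floor in RNAi at stage 12, stood at least 1.25-fold below ZH11, a bound that leaves it uncalled. Among the 17905 genes measured, RNAi was higher for 2.81% and lower for 1.94% at stage 9, and higher for 2.54% and lower for 6.27% at stage 12. Since the genotype ratios chose the genes, nothing is read from these counts.

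**Figure D1:**
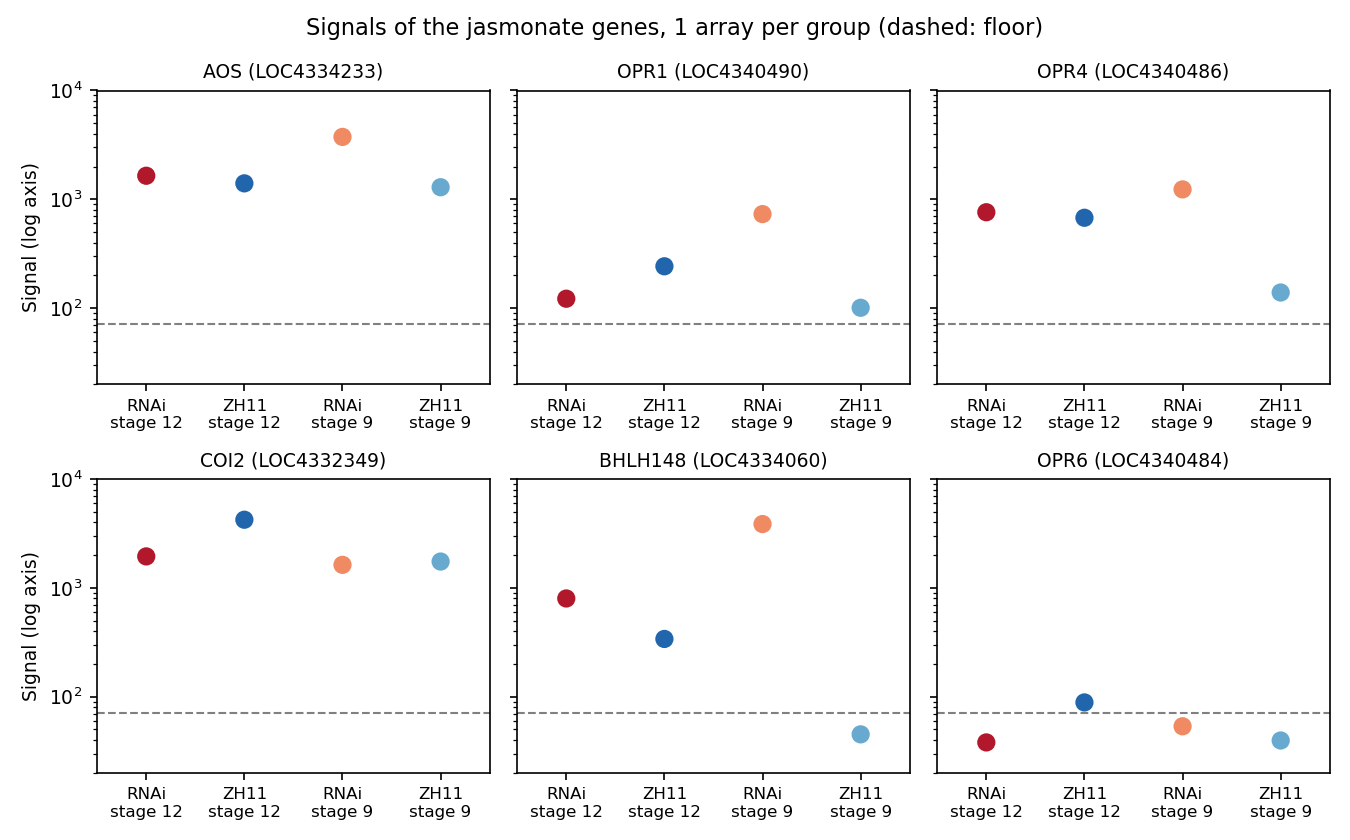
Signal of each gene on the 4 arrays (log axis, 1 point per array, no replicates), with the floor of 71.1 as a dashed line. BHLH148, OPR1, OPR4 and AOS were brightest in RNAi spikelets at stage 9, whereas COI2 was brightest in ZH11 spikelets at stage 12. Levels of different genes are not comparable, since they come from different probes.

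AOS, of the cytochrome P450 family, commits the oxidised fatty acid to the jasmonate branch. It had signals of 1648 in RNAi and 1402 in ZH11 spikelets at stage 12, and of 3748 in RNAi and 1292 in ZH11 spikelets at stage 9. The RNAi array of stage 9 stood alone at the top, 2.27-fold above the next, and the other 3 arrays lay within 1.28-fold of each other. Stage 12 over stage 9 gave AOS a log2 ratio of -1.19 in RNAi and of 0.12 in ZH11.

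No other gene of this step was called between genotypes. AOS2 (LOC4332121), which shares the name AOS, had signals of 110 in RNAi and 126 in ZH11 spikelets at stage 12, and of 283 in RNAi and 236 in ZH11 spikelets at stage 9. Its genotype ratios were within 2-fold at both stages. Like AOS it was brightest in RNAi at stage 9, and its log2 ratio of stage 12 over stage 9 was -1.36 in RNAi and -0.91 in ZH11. AOS3 and AOS4 were below the floor on all 4 arrays. AOC, the cyclase that follows AOS in the pathway, ranged from 3460 to 4648 over the 4 arrays and had log2 ratios of RNAi over ZH11 of 0.07 at stage 12 and 0.35 at stage 9.

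OPR1 and OPR4 belong to a cluster of 6 OPR genes on chromosome 6. RefSeq's gene table (assembly ASM3414082v1) gives their order as OPR6, OPR5, OPR4, OPR3, OPR1 and the second OPR1 locus, with 2 other loci among them that are no OPR genes. The array read 4 of the cluster's OPR genes. Outside the cluster lies OPR7, on chromosome 8, the rice member assigned to jasmonate synthesis.

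OPR1 had signals of 122 in RNAi and 243 in ZH11 spikelets at stage 12, and of 732 in RNAi and 101 in ZH11 spikelets at stage 9. The RNAi array of stage 9 was 3.02-fold above ZH11 at stage 12, the next in order. At stage 12 the log2 ratio of RNAi over ZH11 was -0.99 for OPR1, just short of 2-fold and so uncalled. It was -0.83 under median scaling and -0.81 under quantile normalization. With the floor at 2 times its value it was -0.77, and with a pseudocount -0.70.

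OPR4 had signals of 761 in RNAi and 677 in ZH11 spikelets at stage 12, and of 1234 in RNAi and 139 in ZH11 spikelets at stage 9. Here the array that stood apart was ZH11 at stage 9, 4.86-fold below the next, and the other 3 arrays lay within 2-fold of each other. Both genes of the cluster had their highest signal in RNAi at stage 9. In RNAi at stage 12 OPR4 was within 2-fold of its stage 9 signal and OPR1 was not.

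OPR6 had signals of 38.0 in RNAi and 88.6 in ZH11 spikelets at stage 12, and of 53.5 in RNAi and 39.6 in ZH11 spikelets at stage 9. It was above the floor only in ZH11 at stage 12. OPR5, which lies between OPR6 and OPR4, had signals of 132 in RNAi and 205 in ZH11 spikelets at stage 12, and of 93.1 in RNAi and 47.7 in ZH11 spikelets at stage 9, and was under the floor in ZH11 at stage 9, so that its ratio there, at least 1.31-fold, is a bound. OPR7 was bright on every array, from 2157 to 2761, with log2 ratios of RNAi over ZH11 of -0.36 at stage 12 and 0.17 at stage 9. OPR8 was within 2-fold at both stages and OPR12 was below the floor throughout. Of 7 OPR genes measured, 2 were higher in RNAi at stage 9, OPR1 and OPR4, and none was called at stage 12, where the OPR6 ratio is a bound. Over all genes 2.81% were higher at stage 9, and 2.54% were higher and 6.27% lower at stage 12. OPR1 and OPR4 were chosen by their genotype ratios, so nothing is read from the count.

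COI2 encodes 1 of the 3 rice homologues of the COI jasmonate receptor. It had signals of 1944 in RNAi and 4225 in ZH11 spikelets at stage 12, and of 1627 in RNAi and 1745 in ZH11 spikelets at stage 9. The ZH11 array of stage 12 stood alone, 2.17-fold above the next, and the other 3 lay within 1.19-fold of each other. Under median scaling and quantile normalization the log2 ratio of RNAi over ZH11 at stage 12, -1.12 on the deposited scale, was -0.96 and -0.98, within 2-fold.

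The other receptor genes differed less than COI2 between genotypes at stage 12, and all 3 were within 2-fold at stage 9. COI1A had signals of 3868 in RNAi and 3302 in ZH11 spikelets at stage 12, and of 5012 in RNAi and 5786 in ZH11 spikelets at stage 9. COI1B had signals of 3340 in RNAi and 3019 in ZH11 spikelets at stage 12, and of 2089 in RNAi and 2444 in ZH11 spikelets at stage 9. Their log2 genotype ratios were 0.23 and 0.15 at stage 12 and -0.21 and -0.23 at stage 9.

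BHLH148 encodes a bHLH factor that binds a JAZ protein and is known in rice for a part in drought tolerance. It had signals of 799 in RNAi and 339 in ZH11 spikelets at stage 12, and of 3854 in RNAi and 45.1 in ZH11 spikelets at stage 9. Its ZH11 signal at stage 9 was below the floor, which makes the ratio at that stage a bound. The RNAi array of stage 9 was 4.83-fold above the next, and BHLH148 was the one gene of the 6 that was higher in RNAi at both stages.

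**Figure D2:**
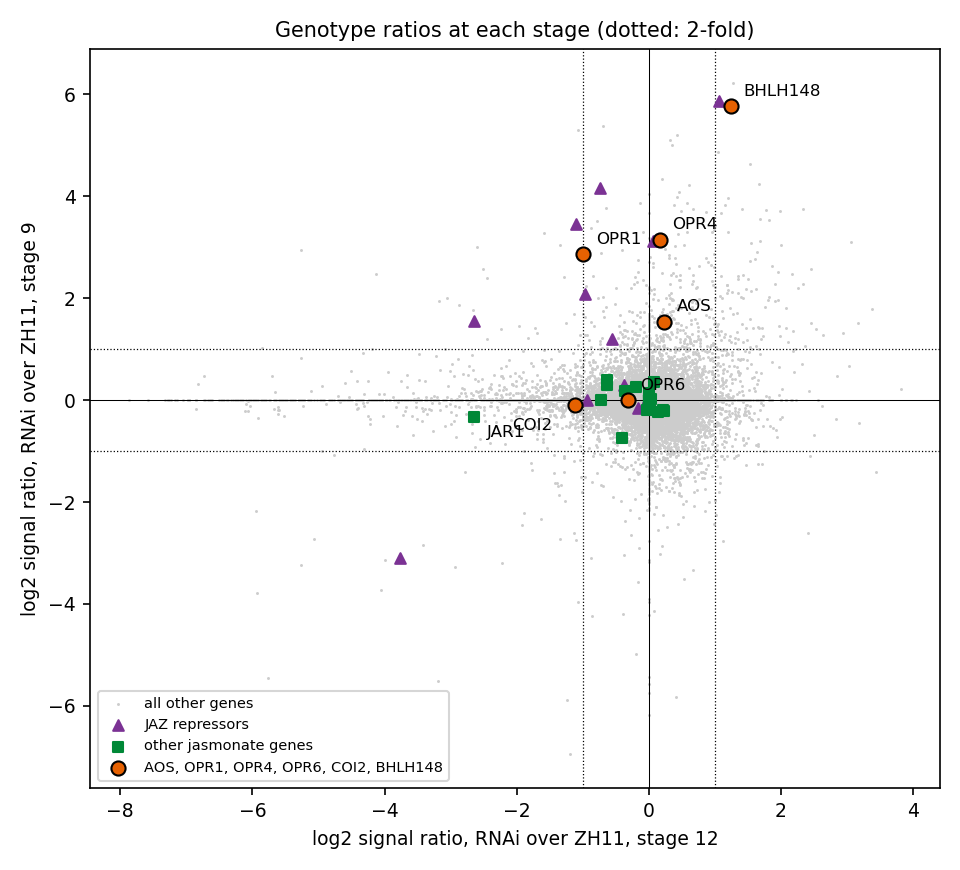
Log2 signal ratio of RNAi over ZH11 at stage 12 (horizontal) and stage 9 (vertical) for each gene measured (grey), with the jasmonate genes marked and 2-fold as dotted lines; genes at or below the floor in a pair have a ratio of 0. BHLH148 (1.24 at stage 12, 5.76 as a bound at stage 9), OPR4, OPR1 and AOS lie above 2-fold on the vertical axis, and COI2 and JAR1 lie past 2-fold to the left with stage 9 ratios near 0.

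The 6 genes were set beside the other genes of the pathway. Of 42 jasmonate genes sought by name, 39 were on the array: 6 lipoxygenases, 5 synthases and cyclases, 7 OPR genes, JAR1, 3 receptors, BHLH148 with 3 co-repressor genes, and 13 JAZ genes. The 39 held no gene of beta-oxidation, no gene of conjugation besides JAR1 and no bHLH factor besides BHLH148. The rest of the pathway was therefore not examined. At stage 9, 11 of the 39 were higher in RNAi and 1 was lower, and at stage 12, 2 were higher and 5 lower. The background over all genes was 2.81% higher and 1.94% lower at stage 9, and 2.54% higher and 6.27% lower at stage 12. The 11 include the 4 genes chosen for differing there, and the 5 were 3 under median scaling and under quantile normalization. The median log2 ratio of the 39 was 0.00 at stage 9, as over all genes, and -0.07 at stage 12, against 0.00 over all genes. Genes at or below the floor on both arrays enter these medians as 0. At stage 9, 32 of the 39 and 15358 of the 17905 genes had an array above the floor. The medians of 0.00 fall on such zeros, so they do not show whether the list differs from all genes. Besides the genes named above, those past 2-fold at stage 9 were all JAZ genes, 7 of 13 higher and 1 lower. At stage 12 the higher genes were BHLH148 and JAZ13, and the lower ones COI2, JAR1, JAZ2, JAZ9 and JAZ11. None of the 20 pathway genes outside the JAZ family and the 6 genes was called at stage 9, a division that follows in part from how the 6 were chosen.

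JAR1, the enzyme that makes the active isoleucine conjugate, was the one other listed gene outside the JAZ family called between genotypes. It had signals of 152 in RNAi and 945 in ZH11 spikelets at stage 12, and of 298 in RNAi and 373 in ZH11 spikelets at stage 9. It was 6.24-fold lower in RNAi at stage 12 and within 2-fold at stage 9. Like COI2, it was brightest in ZH11 at stage 12.

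No lipoxygenase, the enzymes at the start of the pathway, was called higher or lower between genotypes, although 2 of their ratios are bounds that allow more than 2-fold. The LOX8 signal at stage 12 was at least 1.65-fold below ZH11 in RNAi, and LOX1.1 at stage 9 had signals of 78.2 in RNAi and 30.2 in ZH11, the second under the floor. LOX5 had signals of 2165 in RNAi and 3360 in ZH11 spikelets at stage 12, and of 4351 in RNAi and 3530 in ZH11 spikelets at stage 9. LOX2 had log2 ratios of RNAi over ZH11 of 0.01 at stage 12 and -0.10 at stage 9, and those of LOX9 were -0.40 at stage 12 and -0.74 at stage 9. LOX3 was below the floor on all arrays, and LOX8 and LOX1.1 were above it on 1 array each. Among the co-repressors that act with JAZ proteins, NINJA1 ranged from 2089 to 2517 and TPR3 from 3590 to 3947 over the 4 arrays. For TPR2 the log2 ratio of RNAi over ZH11 was 0.03 at stage 12 and 0.01 at stage 9.

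**Figure D3:**
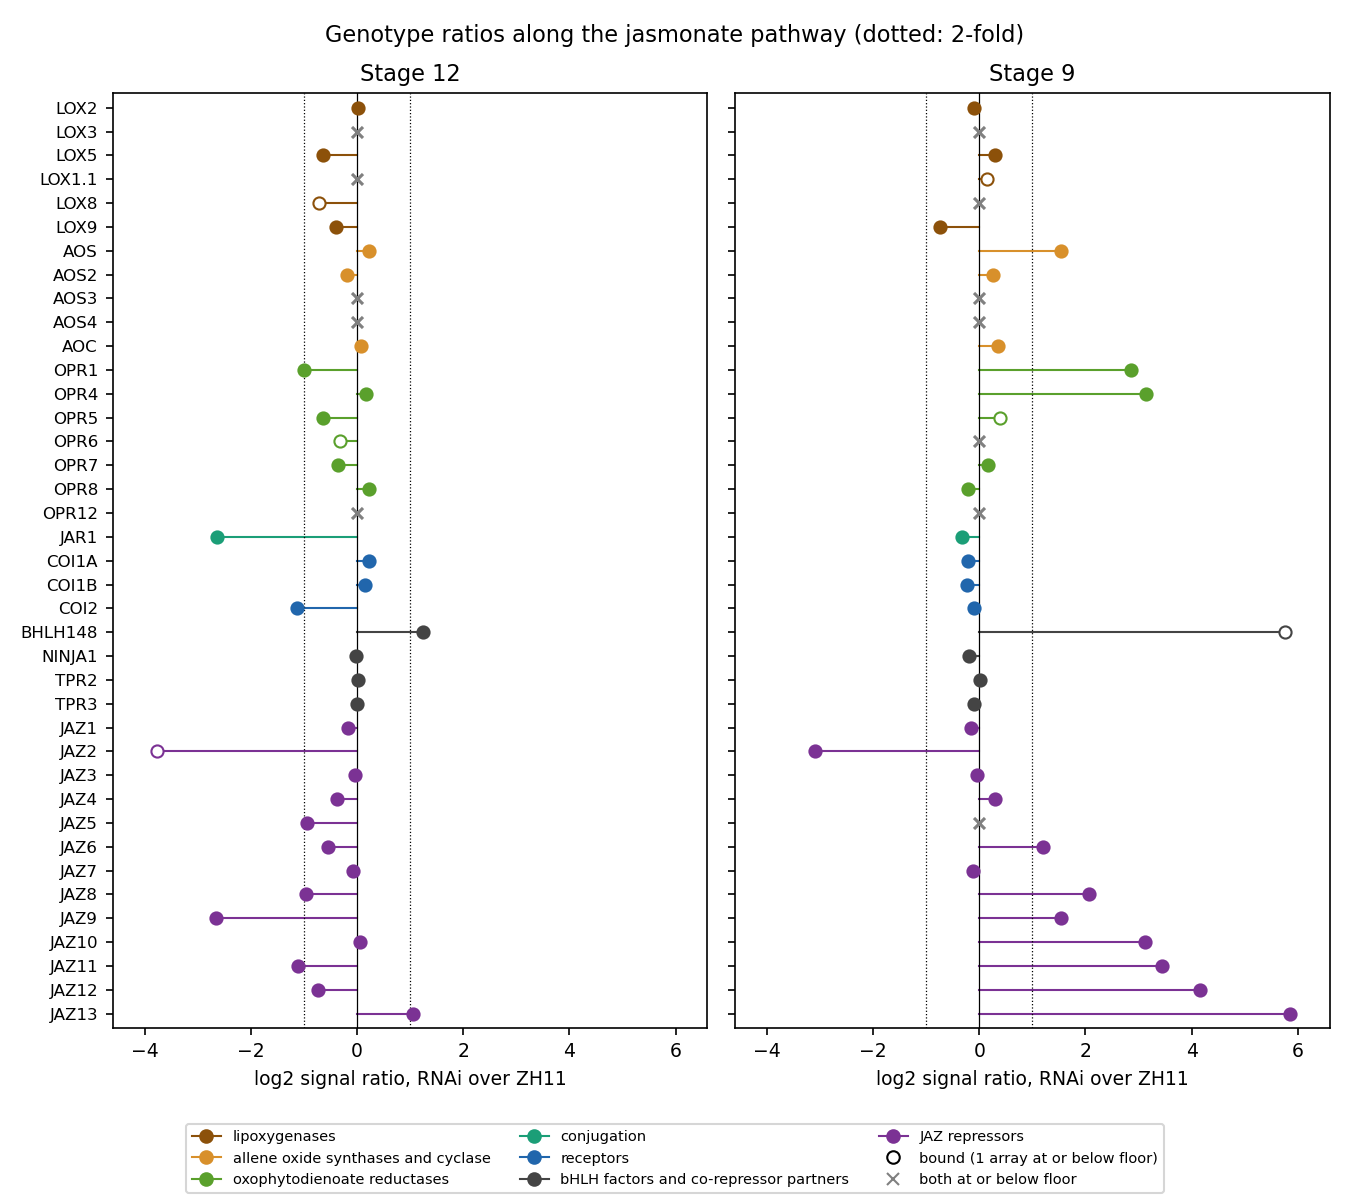
Log2 signal ratio of RNAi over ZH11 for the 39 jasmonate genes in pathway order, at stage 12 (left) and stage 9 (right), from 1 array per group. Open circles are bounds, crosses mark genes at or below the floor on both arrays, and dotted lines mark 2-fold; outside the JAZ genes the long lines are AOS, OPR1, OPR4 and BHLH148 at stage 9 and JAR1, COI2 and BHLH148 at stage 12.

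Between stages, 4 of the 6 genes were higher at stage 12 than at stage 9 in ZH11 and 3 were lower at stage 12 in RNAi. In ZH11, BHLH148 was at least 4.77-fold, OPR4 4.86-fold, COI2 2.42-fold and OPR1 2.40-fold higher at stage 12. In RNAi, OPR1 was 5.99-fold, BHLH148 4.83-fold and AOS 2.27-fold lower at stage 12, while OPR4, with a log2 ratio of -0.70, and COI2, with 0.26, were within 2-fold. The background was 15.7% of all genes higher and 14.4% lower at stage 12 in ZH11, and 13.4% higher and 14.2% lower in RNAi. These ratios share arrays with the genotype ratios by which the genes were chosen, so a high RNAi signal at stage 9 lowers the stage ratio in RNAi by construction. In the same way, a low ZH11 signal at stage 9 or a high ZH11 signal at stage 12 raises the stage ratio in ZH11. Nothing is read from these counts.

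OPR1 and BHLH148 were at once lower at stage 12 in RNAi and higher at stage 12 in ZH11, each by at least 2-fold, as were 0.436% of all genes (78 of 17905). This pattern too follows in part from how the genes were chosen. The stage ratio of OPR1 in ZH11 did not pass 2-fold with the floor at 2 times its value or with a pseudocount, with log2 ratios of 0.77 and 0.87. Among the other jasmonate genes JAZ11 and JAZ13 were placed likewise. JAR1 was 2.54-fold higher at stage 12 in ZH11, with a log2 ratio of -0.97 in RNAi.

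**Figure D4:**
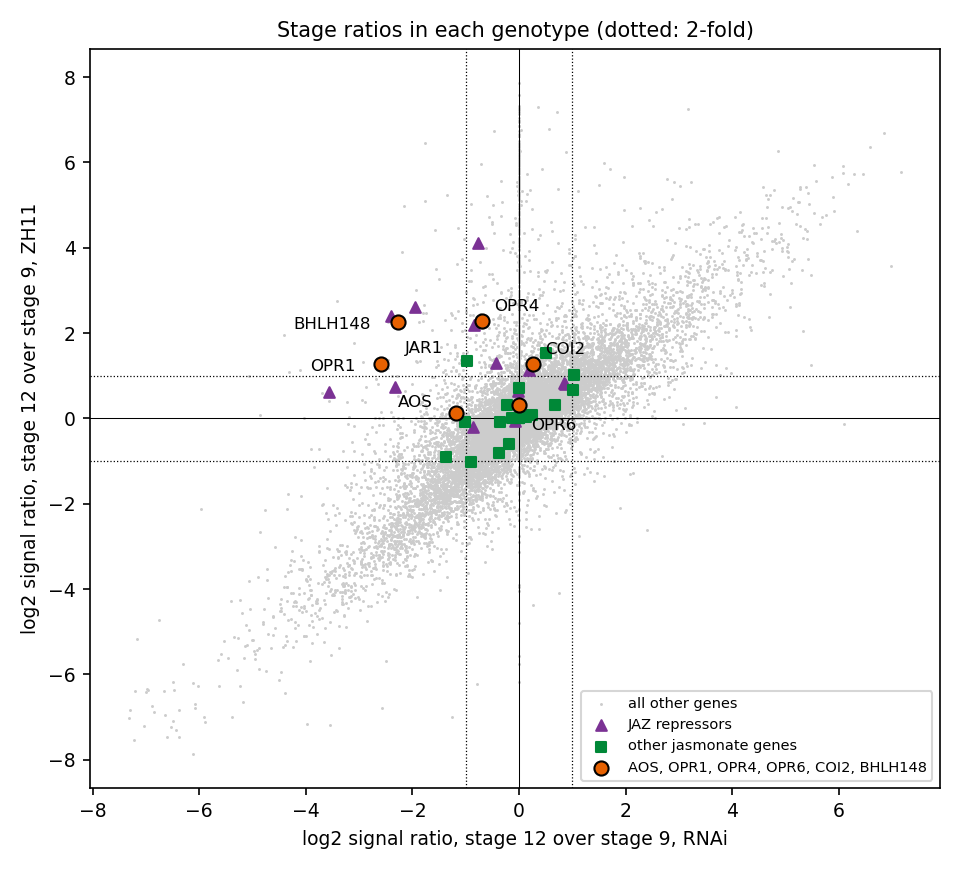
Log2 signal ratio of stage 12 over stage 9 in RNAi (horizontal) and in ZH11 (vertical) for each gene measured (grey), with the jasmonate genes marked and 2-fold as dotted lines. The grey points run along the diagonal, whereas OPR1 (-2.58 in RNAi, 1.27 in ZH11) and BHLH148 (-2.27 in RNAi, 2.25 as a bound in ZH11) lie in the upper left.

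The stage 9 signals in RNAi were set against the stage 12 signals in ZH11, the later stage of the parent cultivar. BHLH148 was 11.4-fold, OPR1 3.02-fold, AOS 2.67-fold and OPR4 1.82-fold brighter in RNAi at stage 9 than in ZH11 at stage 12. COI2 went the other way, with a ratio of 0.385, and OPR6 had a ratio of at most 0.803. AOS, OPR1 and BHLH148 were at least 2-fold above each of the other 3 arrays in RNAi at stage 9, as were 1.35% of all genes (241). JAZ10 and JAZ13 were the other jasmonate genes with that pattern. COI2 and JAR1 were at least 2-fold above each of the other 3 arrays in ZH11 at stage 12, as were 4.49% of all genes (804). AOS, OPR1, BHLH148 and COI2 were chosen by genotype ratios that use these arrays, so nothing is read from these shares.

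For each gene, the 3 named genes with the most similar pattern were taken by the root mean square difference of mean-centred log2 signals over the 4 arrays. The nearest to BHLH148 was JAZ13, with a difference of 0.07 against a range of 5.76 for BHLH148 itself, both taken with the ZH11 signal of BHLH148 at stage 9 raised to the floor, so that the range is a bound and the difference is not exact. JAZ13 had signals of 1121 in RNAi and 538 in ZH11 spikelets at stage 12, and of 5923 in RNAi and 102 in ZH11 spikelets at stage 9. BC1L9 (LOC4349011), with a difference of 0.50, and OsPP2C29 (LOC4332004), with 0.75, followed at some distance.

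OPR1 was nearest to JAZ10, at 0.39, JAZ11, at 0.54, and LTR1 (LOC4336407), at 0.57, against a range of 2.86. The JAZ10 pattern depends on the probe set used: without cross-matching probe sets its log2 ratio of RNAi over ZH11 at stage 9 was 3.59 in place of 3.12, its ratio of stage 12 over stage 9 in RNAi was -3.23 in place of -2.32, and the likeness was not recomputed. OPR4 was nearest to the heat shock genes HSP24.1 (LOC4330786), at 0.15, and HSP17.4 (LOC4332360), at 0.27, and to NAC071 (LOC4349963), at 0.42, against a range of 3.15. AOS was nearest to BRXL2 (LOC4330435), at 0.04, OsPSY3 (LOC4347813), at 0.13, and HSP17.8 (LOC4330496), at 0.18, against a range of 1.54. COI2 was nearest to OsVIT1 (LOC4336075), at 0.07, JAZ5, at 0.09, and osysl1 (LOC4326360), at 0.10, against a range of 1.38. OPR6, with a range of 0.32, was nearest to IAA20 (LOC4340245), at 0.01, and its likeness to other genes rests on arrays at the floor. Floored arrays also enter the likeness of osysl1 (3 arrays), of JAZ5 (both stage 9 arrays), of HSP17.8 (both stage 12 arrays), and of HSP24.1 and BC1L9 (ZH11 at stage 9).

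By this measure, which grows with the size of a change, the 6 genes differed among themselves. AOS, OPR4 and BHLH148 nonetheless had the same order of arrays. From brightest to dimmest it was RNAi at stage 9, RNAi at stage 12, ZH11 at stage 12 and ZH11 at stage 9. OPR1 shared the brightest and the dimmest array with them. These 4 genes were chosen by genotype ratios that use these arrays, so the first and last places follow in part from that choice. The steps from the second array to the third were small, 1.17-fold for AOS and 1.12-fold for OPR4. For AOS the step from the third to the dimmest was 1.09-fold. Nothing is read from the shared order. The likeness of COI2 and OPR6 rests on OPR6 arrays at the floor. The closest pair other than COI2 and OPR6 (0.42) was AOS and OPR1, at 0.64. OPR1 and JAZ10 were closer, but JAZ10 was picked as the nearest of all named genes, so nothing is read from that. The neighbours OPR1 and OPR4 were 0.84 apart, and COI2 and BHLH148 were the farthest apart, at 2.27.

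Other signals moved with the same arrays, and their part in the results was not tested. The marker lists were chosen with earlier results of these data known, so nothing is read from their counts. Over all genes, 2.81% were higher in RNAi and 1.94% lower at stage 9, and 2.54% higher and 6.27% lower at stage 12. At stage 9, 4 of 5 wound and stress markers were higher in RNAi, with summed signals of 13351 in RNAi and 2165 in ZH11, and 5 of 8 tapetum markers were lower and 1 higher, with summed signals of 19578 in RNAi and 36336 in ZH11. At stage 12, all 4 late pollen markers were lower in RNAi, beside the lower COI2 and JAR1, with summed signals of 252 in RNAi and 34356 in ZH11. At that stage, where BHLH148 was higher in RNAi, 2 of the 5 wound and stress markers (DREB1B and RAB21) were higher too. The 5 summed to 11633 in RNAi and 7006 in ZH11. Of the 8 tapetum markers, 1 was higher (RAFTIN1) and 1 lower (OsC6) there. The 8 summed to 3253 in RNAi and 1574 in ZH11. RAFTIN1 gave 2149 and 199 of these sums, so the higher sum in RNAi rests on that 1 gene. EXPB9 and EXPB10, pollen beta-expansins, were below the floor in RNAi at stage 12. RNA integrity can be read from control genes as the signal at the 3-prime end over that at the 5-prime end. For Gapdh this quotient was 3.48 in both genotypes at stage 12, and 2.50 in RNAi and 1.96 in ZH11 at stage 9. For actin it was 8.53 in RNAi and 10.3 in ZH11 at stage 12, and 4.20 in RNAi and 3.89 in ZH11 at stage 9. As a gauge of noise between probes, the log2 ratios of RNAi over ZH11 of probe sets of the same gene had a pooled SD of 0.32 at stage 12 and 0.25 at stage 9, which covers no difference between plants or arrays.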

How the data were processed

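The authors deposited 1 linear intensity per probe set and array, made with MAS5, per the submitters' processing notes. The sources used here do not say how MAS5 was set or whether arrays were scaled to each other. The arrays' trimmed mean signals, leaving out 2% at each end, lay between 333 and 367, and the floor is their mean divided by 5. Of 57381 probe sets, 123 were controls and 22436 had 1 annotated gene, which gave 17905 genes. Where a gene had several probe sets, the brightest by mean log2 signal over the arrays was used. Gene names came from the platform annotation and the RefSeq gene table of ASM3414082v1, which was used for names and neighbours only. The 6 genes and the lists were chosen with earlier results of these data known. DAD1 was sought as a lipase but left out, because the rice gene of that name encodes another protein. Genes of lists with at most 6 measured genes were to be named, and in longer lists those called between genotypes; the 3 genes nearest in pattern were named per gene. No test was possible with 1 array per group. Ratios were computed with Python 3.11.15, numpy 2.4.6 and pandas 2.3.3. The code for the calls was also run on simulated data. There the noise was smaller than that between probe sets here, and changes beyond 2-fold were planted only in genes far above the floor. That run checks the code and says nothing of calls near 2-fold or near the floor. Alternatives were median scaling, quantile normalization, the floor at 2 times its value, a pseudocount of the floor's size, the median over probe sets, and leaving out cross-matching probe sets.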

Additional observations from a re-analysis of the deposited data

Results flagged for a closer look

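Some genes had ratios of opposite sign in the 2 genotypes or at the 2 stages, with at least 1 of the 2 ratios past 2-fold. None of these differences was tested, since each ratio rests on 2 arrays. The 6 genes were chosen by genotype ratios that use the same arrays, so opposite signs follow in part from that choice. The share of all genes that meet this rule was not counted, and nothing is read from how many of the 6 do. The log2 ratio of stage 12 over stage 9 of BHLH148 was -2.27 in RNAi and 2.25 in ZH11, a difference of -4.53; the ZH11 ratio is a bound, with the stage 9 signal under the floor, and the difference is therefore one too. For OPR1 the difference was -3.85, from -2.58 in RNAi and 1.27 in ZH11. For OPR4 it was -2.98, from -0.70 in RNAi and 2.28 in ZH11, and for AOS -1.30, from -1.19 in RNAi and 0.12 in ZH11, where the ZH11 ratio lies inside the pooled SD of 0.56 between probe sets of the same gene and its sign carries no weight. Of the 6 genes, OPR1 also had genotype ratios of opposite sign at the 2 stages, with a log2 ratio of RNAi over ZH11 of -0.99 at stage 12 and 2.86 at stage 9. Their difference is by construction the same -3.85. This sign pattern is shared with JAZ6, JAZ8, JAZ9, JAZ11 and JAZ12, which were also higher in RNAi at stage 9 and had negative ratios at stage 12.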

How the results depend on the processing

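No paired analysis was possible because each group had 1 array, so the groups compared share fewer than 2 replicate numbers. Of 144 ratios recomputed for the 6 genes, 134 stayed on their side of 2-fold and within 1 pooled SD of probe sets of the same gene (0.32 and 0.25 for genotype ratios at stages 12 and 9, 0.58 and 0.56 for stage ratios in RNAi and ZH11), and none changed direction. Since each of the 6 genes has 1 probe set, the 2 alternatives on probe sets returned their main ratios by construction. Nor could the floor at 2 times its value change a ratio of AOS or COI2, whose signals lie far above it on every array. These unchanged ratios are among the 134 and carry no weight. At stage 9 the same 4 genes were higher in RNAi under each of the 6 alternatives. The 2 on probe sets could not change these calls, and for AOS the raised floor could not either. Median scaling and quantile normalization put COI2 at -0.96 and -0.98 at stage 12 and the jasmonate genes lower there at 3 and 3, from 5; median scaling left 0 jasmonate genes lower at stage 12 in ZH11. With the floor at 2 times its value the log2 genotype ratio at stage 9 was 2.36 for OPR1 and 4.76 for BHLH148, the stage ratio in ZH11 was 0.77 for OPR1 and 1.25 for BHLH148, and 1 jasmonate gene was higher at stage 12 in RNAi, as with the median over probe sets (1). With a pseudocount the genotype ratio at stage 9 was 2.22 for OPR1, 2.63 for OPR4 and 5.08 for BHLH148, and the stage ratio of OPR1 in ZH11 was 0.87. With it 291 genes, against 455, and 1 jasmonate gene, against 2, were higher in RNAi at stage 12, with 0 jasmonate genes higher at stage 12 in RNAi and 0 lower in ZH11. A raised floor can only shrink ratios of genes under it, by construction, and for the other shifts the cause was not tested. Both scalings moved the median log2 genotype ratio at stage 12, by 0.15 and 0.13, and higher genes were 28.9% of those called there on the deposited scale, 41.2% and 39.4% under the scalings. Among the other jasmonate genes, JAZ11 at stage 12 was -0.95 and -0.99 under the scalings and JAR1 was -2.19 with a pseudocount. Signals near the floor limit OPR6, OPR5 and the ZH11 level of BHLH148 at stage 9.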
